A study of Rattus norvegicus with 9 samples.

Results

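Galectins are soluble lectins that bind beta-galactosides on glycoproteins and glycolipids. The 4 galectin genes described here are Lgals1, Lgals3, Lgals8 and Lgals9. They were taken from the deposited expression table by gene symbol, ignoring case, and are 4 of its 26407 rows. That rule uses no measured value, and all 4 passed the filter on low values that left 11376 genes for testing.

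Galectins are made in the cytosol and leave the cell without a signal peptide. Outside the cell they crosslink branched N-glycans on integrins, growth factor receptors and matrix proteins. Inside it, several of them recognise the glycans that become exposed when an endosome or lysosome is torn. Galectin-1 (Lgals1) is of the prototype form and acts as a homodimer. Galectin-3 (Lgals3) is the only chimera-type galectin of vertebrates, with a lectin domain joined to a long tail through which it forms oligomers. Galectin-8 (Lgals8) and galectin-9 (Lgals9) are of the tandem-repeat form, in which a pair of different lectin domains is joined by a linker. In the vessel wall, galectin-1 is abundant in smooth muscle, and galectin-3 is known both as a macrophage product and as a marker of smooth muscle cells that take on macrophage-like features.

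RNA was sequenced from S31 cells, primary smooth muscle cells that were grown out of the small vessels of hearts of male Wistar Kyoto rats of wild-type genotype. All cells, the controls included, had first been starved of serum for 48 h. There were 9 libraries, 3 in each of the PDGF-NS, IGF-NS and LH-NS column sets of the table. LH-NS is the control, which received serum-free medium without a growth factor and was harvested at 24 h.

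The sources disagree on the identity of the treated sets. The sample records for recombinant human IGF-1, harvested at 24 h, name the PDGF-NS columns. The records for recombinant rat PDGF-BB, harvested at 48 h, name the IGF-NS columns. Both growth factors were used at 25 ng/ml. The sets are called by their columns here, and no expression value was used to decide between the names. The controls were harvested at 24 h, so the growth factor and the time of harvest cannot be told apart in whichever set was taken at 48 h. Whether the 3 libraries of a set were separate cultures is not stated in the sources, and the p-values therefore reflect no more than the spread among these libraries, which may be technical.

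Values are FPKM as deposited, that is sequenced fragments scaled by transcript length and library size, so levels can be compared between genes per length. Fold changes were tested with limma on log2(FPKM + 1), and each adjusted p is limma's, corrected by the Benjamini-Hochberg method across the 11376 genes. A gene is said to have risen or fallen where the adjusted p was under 0.05. Changes written as -fold are ratios of mean FPKM. The FPKM of a library summed to between 616765 and 748000, and 11047 to 11348 genes reached 1 FPKM. Read depth is unknown. The steps between low values put it, relative to control library 1, at 0.94 to 1.37 in PDGF-NS, 0.72 to 1.16 in IGF-NS and 0.66 to 1.00 in LH-NS, and the part of depth in the results was not tested. The median log2 fold change of all genes was 0.13 in PDGF-NS against control and 0.15 in IGF-NS against control, and both became 0.01 under median ratio scaling. Between PDGF-NS and IGF-NS it was −0.02, or −0.14 after rescaling to one common sum.

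The cells carried the smooth muscle markers Tagln, Cnn1 and Myocd, at means of 211, 22.5 and 5.34 FPKM in PDGF-NS, 358, 38.0 and 21.5 FPKM in IGF-NS, and 2105, 262 and 44.7 FPKM in control. The summed FPKM of 12 smooth muscle markers ran from 438 to 474 in PDGF-NS, from 658 to 702 in IGF-NS and from 2649 to 3782 in control. Des of that list rose in PDGF-NS (log2 1.30, limma adjusted p = 0.000365) and fell in IGF-NS (−0.95, limma adjusted p = 0.00368). Myh11, also of that list, averaged under 1 FPKM over the 9 libraries and was not tested. Markers of other cell types moved as well. The 10 fibroblast markers summed to 4544 to 5617 FPKM in PDGF-NS, 7723 to 8920 FPKM in IGF-NS and 4516 to 5625 FPKM in control. Of 9 tested, 5 rose and 0 fell in each treated set against control, 55.6% and 0% of those tested. Of all genes, 20.7% were called higher and 10.2% lower in PDGF-NS, and 17.4% and 7.48% in IGF-NS. Leaving out a library left 4 to 5 of these markers higher in each treated set. Lum, a matrix proteoglycan, averaged 1064 ± 257 FPKM in PDGF-NS, 1795 ± 79.0 FPKM in IGF-NS and 340 ± 59.7 FPKM in control (SD, n = 3 each). The 12 endothelial markers summed to 11.7 to 19.6 FPKM in PDGF-NS, 6.19 to 7.01 FPKM in IGF-NS and 22.2 to 33.1 FPKM in control. Flt1, which encodes a VEGF receptor, carried most of that sum and fell in both treated sets (−0.88 and −2.29), while Cdh5, Kdr, Emcn, Cldn5 and Robo4 were listed at 0 in every library. The 9 cardiomyocyte markers summed to 49.3 to 97.2 FPKM in PDGF-NS, 53.5 to 112 FPKM in IGF-NS and 514 to 865 FPKM in control. Pln of that list had means of 65.8, 60.8 and 683 FPKM in PDGF-NS, IGF-NS and control. It fell in both treated sets (−3.38 and −3.59), and Tnnt2 fell in PDGF-NS (−2.15). In each set 7 of the 9 averaged under 1 FPKM, and Myh6 and Myh7 were listed at 0 in every library. The 8 pericyte markers summed to 478 to 530 FPKM in PDGF-NS, 511 to 653 FPKM in IGF-NS and 460 to 727 FPKM in control. Among them Abcc9 rose (1.35) and Notch3 fell (−1.85) in PDGF-NS against control. The part of these markers in the galectin results was not tested. In bulk samples such as these, fewer cells of a type and less RNA per cell cannot be told apart.

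The galectins moved apart from each other. Lgals3 rose 6.86-fold in PDGF-NS and was 2.3-fold lower in IGF-NS, each against control. Lgals1, already among the most abundant transcripts of the cells, rose 1.73-fold in PDGF-NS and lay near control in IGF-NS. Lgals8 rose in both treated sets, by about the same amount. Lgals9 had the lowest mean of the 4 in every set and passed the threshold in neither.

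**Figure D1:**
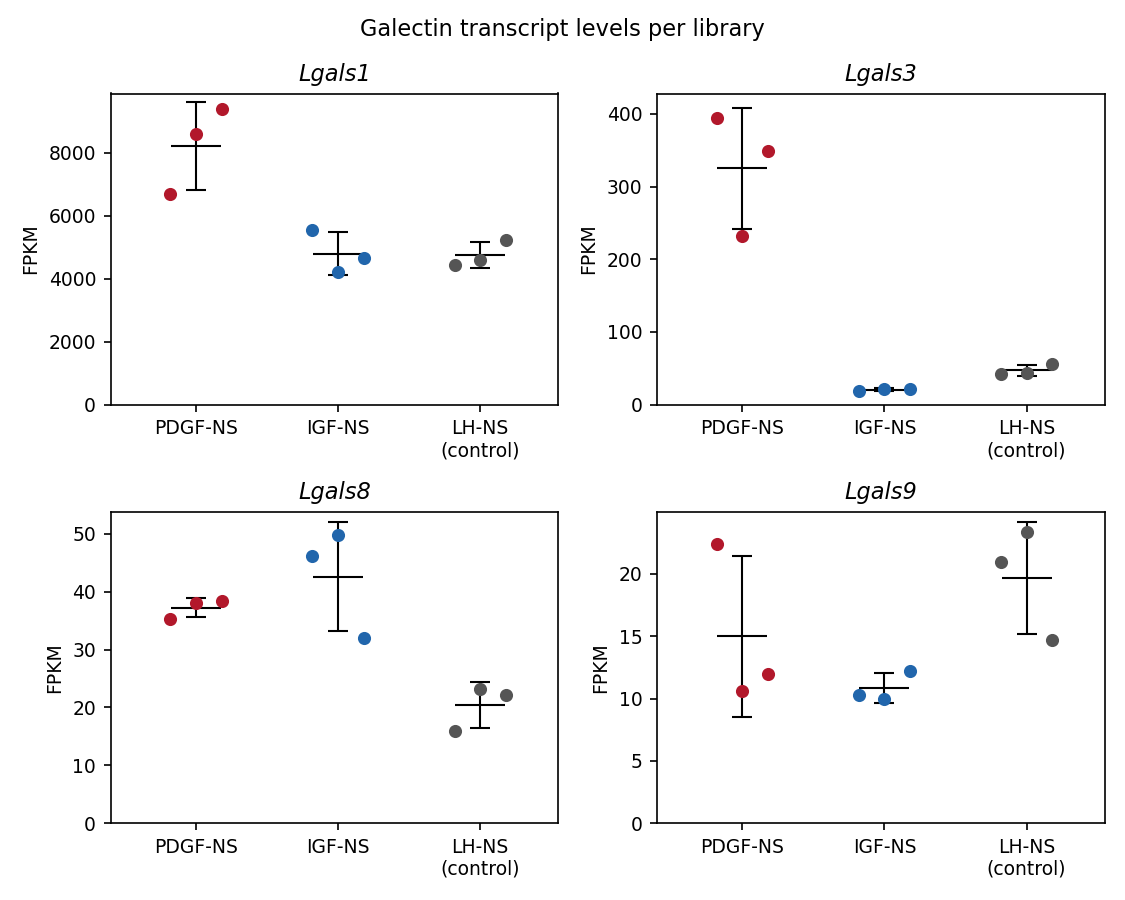
FPKM of Lgals1, Lgals3, Lgals8 and Lgals9 (vertical axes, linear and from 0, a scale of its own for each gene) in the 3 PDGF-NS, 3 IGF-NS and 3 control (LH-NS) libraries. Each point is 1 library, and the bars give the mean ± SD. Lgals3 reaches 232 to 394 FPKM in PDGF-NS and stays at 56.2 FPKM or below in the 6 other libraries, and Lgals8 lies above control in both treated sets.

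Lgals1 (ENSRNOG00000009884) had 6684, 8609 and 9382 FPKM in PDGF-NS, 5540, 4220 and 4650 FPKM in IGF-NS, and 4424, 4602 and 5233 FPKM in control. All PDGF-NS libraries lay above all others, and the IGF-NS and control libraries overlapped. Lgals1 was ranked by FPKM among all genes of the table except 4 that were left out for a failed estimate. It stood 9th, 6th and 7th in the PDGF-NS libraries, 10th, 12th and 13th in the IGF-NS libraries, and 12th, 17th and 12th in the controls. It averaged 8225 ± 1389 FPKM in PDGF-NS and 4753 ± 425 FPKM in control (SD, n = 3 each), which is 0.78 on the log2 scale (SE 0.18, limma adjusted p = 0.00785). In IGF-NS the mean was 4803 ± 673 FPKM (SD, n = 3). The log2 fold change against control there was 0.01, with a 95% confidence interval of −0.38 to 0.40 (limma adjusted p = 0.978), and its sign turned under median ratio scaling (−0.15). PDGF-NS exceeded IGF-NS 1.71-fold (log2 0.77, SE 0.18, limma adjusted p = 0.0149). This call depended on single libraries and on scaling: the adjusted p was 0.0516 without IGF-NS library 2, 0.0583 without PDGF-NS library 2, 0.0754 without PDGF-NS library 3 and 0.0901 under quantile normalization.

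Lgals3 (ENSRNOG00000010645) had 394, 232 and 349 FPKM in PDGF-NS, 18.2, 21.7 and 22.1 FPKM in IGF-NS, and 42.3, 43.7 and 56.2 FPKM in control. The 3 sets did not overlap: every PDGF-NS library was above every control, and every IGF-NS library was below every control. In PDGF-NS it averaged 325 ± 83.7 FPKM, against 47.4 ± 7.66 FPKM in control (SD, n = 3 each). The log2 fold change was 2.73 (SE 0.20, 95% confidence interval 2.29 to 3.17, limma adjusted p = 1.28e-05), the 56th highest of the 11376 genes tested. In IGF-NS it averaged 20.6 ± 2.13 FPKM (SD, n = 3), which lies −1.15 from control on the log2 scale (SE 0.20, 95% confidence interval −1.60 to −0.71, limma adjusted p = 0.00301). Between the treated sets Lgals3 differed 15.8-fold, with a log2 fold change of 3.88 for PDGF-NS against IGF-NS (SE 0.20, 95% confidence interval 3.44 to 4.33, limma adjusted p = 3.45e-06). This was the 10th highest value in that comparison. By level, Lgals3 ranked 243rd, 427th and 294th in the PDGF-NS libraries, 4674th, 3989th and 4117th in the IGF-NS libraries, and 2111th, 2075th and 1618th in the controls. Each of the 3 calls and its direction held in 19 of 19 alternative settings.

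Lgals8 (ENSRNOG00000018046) had 35.3, 38.1 and 38.3 FPKM in PDGF-NS, 46.1, 49.7 and 32.0 FPKM in IGF-NS, and 15.9, 23.2 and 22.1 FPKM in control. Every treated library lay above every control, and the treated sets overlapped. In PDGF-NS the mean was 37.2 ± 1.66 FPKM, 1.83-fold the control mean of 20.4 ± 3.93 FPKM (SD, n = 3 each), with a log2 fold change of 0.86 (SE 0.19, limma adjusted p = 0.0068). In IGF-NS it averaged 42.6 ± 9.38 FPKM (SD, n = 3), 2.09-fold control, with a log2 fold change of 1.02 (SE 0.19, limma adjusted p = 0.00417). Set directly against IGF-NS, PDGF-NS differed by −0.17 on the log2 scale, with a 95% confidence interval of −0.58 to 0.25 (limma adjusted p = 0.622). The data thus leave room for a difference in either direction within that interval.

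Lgals9 (ENSRNOG00000012681) had 22.4, 10.6 and 12.0 FPKM in PDGF-NS, 10.3, 10.0 and 12.2 FPKM in IGF-NS, and 21.0, 23.4 and 14.7 FPKM in control. The IGF-NS libraries were all below the controls, and PDGF-NS library 1 stood at the level of the controls while the other PDGF-NS libraries were below them. The IGF-NS mean of 10.8 ± 1.17 FPKM was 1.82-fold lower than the control mean of 19.7 ± 4.5 FPKM (SD, n = 3 each). The log2 fold change was −0.79 (SE 0.26, 95% confidence interval −1.36 to −0.21), and the limma adjusted p of 0.05002 missed the threshold (unadjusted p = 0.0124). It ranged from 0.0149 to 0.144 over the alternatives. In PDGF-NS the mean was 15.0 ± 6.45 FPKM (SD, n = 3), and the change against control was −0.42 on the log2 scale (95% confidence interval −0.999 to 0.16, limma adjusted p = 0.243). Without PDGF-NS library 1 that change was −0.73 and passed, with a limma adjusted p of 0.0285. PDGF-NS against IGF-NS gave 0.37 (95% confidence interval −0.21 to 0.94, limma adjusted p = 0.397).

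Of the 4 galectins, 3 rose and 0 fell in PDGF-NS against control, where 31.0% of all genes tested were called, 20.7% higher and 10.2% lower. In IGF-NS against control 1 rose and 1 fell, where 24.9% of all genes were called, 17.4% higher and 7.48% lower. In PDGF-NS against IGF-NS 2 were higher and 0 lower, where 15.9% of genes were called, 8.33% higher and 7.55% lower. Library sets that did not overlap were common as well: 48.6% of genes for PDGF-NS and control, 39.0% for IGF-NS and control, and 36.3% for PDGF-NS and IGF-NS. With 4 genes, these counts are not read as a property of the family. The split of calls depends on scaling. In PDGF-NS against control 66.9% of called genes were higher as deposited and 51.3% under median ratio scaling, and in IGF-NS against control 69.9% and 48.1%. In PDGF-NS against IGF-NS the share was 52.5% as deposited and 33.2% after rescaling to one common sum.

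**Figure D2:**
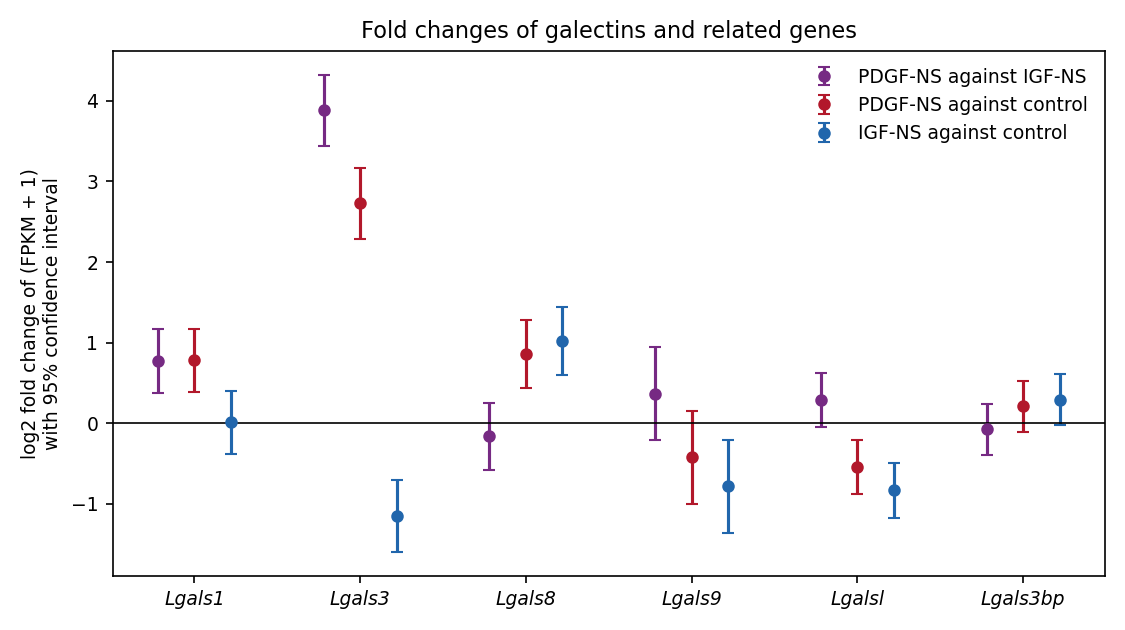
Log2 fold change of (FPKM + 1) with its 95% confidence interval from limma for the 4 galectins, Lgalsl and Lgals3bp, in PDGF-NS against IGF-NS, PDGF-NS against control and IGF-NS against control. The intervals of Lgals3 lie on opposite sides of 0 for PDGF-NS (2.29 to 3.17) and IGF-NS (−1.60 to −0.71) against control, and those of Lgals8 lie above 0 for both.

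The order of the galectins by level in IGF-NS was one that no control library had. Lgals1 came first in all 9 libraries. In all PDGF-NS libraries it was followed by Lgals3, Lgals8 and Lgals9, in that order. In all IGF-NS libraries Lgals8 came before Lgals3, and Lgals9 was last. In control, Lgals3 was in 2nd place in each library, and Lgals8 and Lgals9 changed places between libraries, so that control library 3 had the same order as the PDGF-NS libraries. The ratio of Lgals8 to Lgals9 was 1.58, 3.61 and 3.19 in PDGF-NS, 4.48, 4.95 and 2.62 in IGF-NS, and 0.756, 0.989 and 1.5 in control. Lgals8 thus exceeded Lgals9 in every treated library, whereas in control these neighbours in the order did not differ beyond the spread of the libraries.

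Lgals1 made up 93.7 to 96.8% of the summed FPKM of the 4 genes in PDGF-NS, 98.1 to 98.7% in IGF-NS and 98.1 to 98.3% in control. The sum itself ran from 7135 to 9781 FPKM in PDGF-NS, from 4301 to 5614 FPKM in IGF-NS and from 4503 to 5326 FPKM in control. A total over the family therefore mostly reads Lgals1. Without it, the sum was 280 to 452 FPKM in PDGF-NS, 66.2 to 81.4 FPKM in IGF-NS and 79.2 to 93.0 FPKM in control, so that the PDGF-NS libraries lay above all others by this sum too.

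Ratios within a library do not depend on a common scaling factor. For every 1000 FPKM of Lgals1 there were 58.9, 26.9 and 37.2 FPKM of Lgals3 in PDGF-NS, 3.28, 5.13 and 4.74 in IGF-NS, and 9.56, 9.49 and 10.7 in control. The ratio of Lgals3 to Lgals8 was 11.1, 6.09 and 9.11 in PDGF-NS, 0.395, 0.436 and 0.69 in IGF-NS, and 2.66, 1.89 and 2.54 in control. Both ratios kept the order of PDGF-NS above control above IGF-NS with no overlap between sets, and they show unequal change, not which gene changed.

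**Figure D3:**
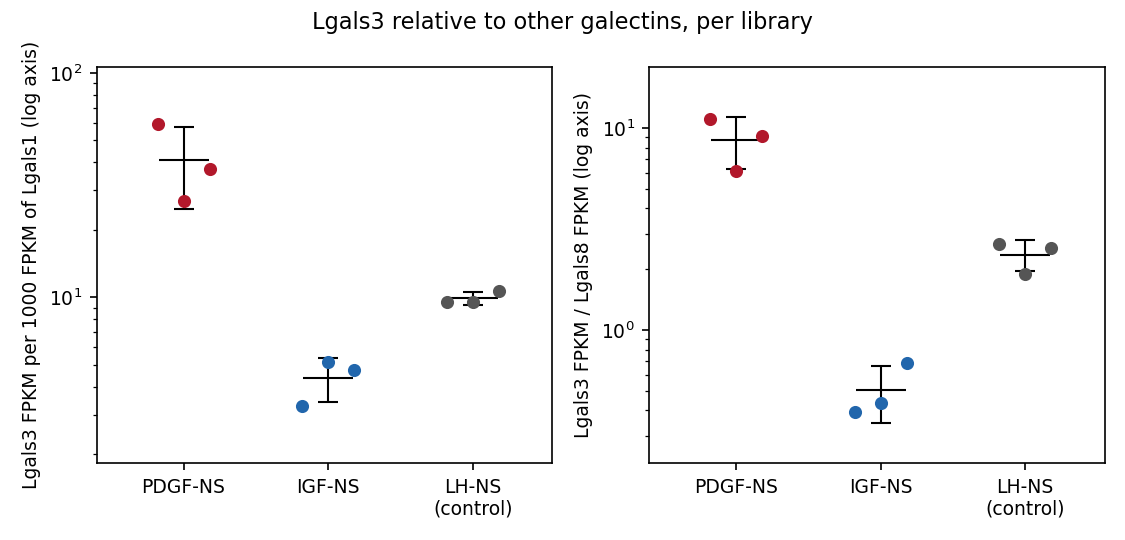
FPKM of Lgals3 for every 1000 FPKM of Lgals1 (left) and the ratio of Lgals3 to Lgals8 FPKM (right), both on log axes, in each PDGF-NS, IGF-NS and control (LH-NS) library. Points are libraries and bars are mean ± SD (n = 3). On the left PDGF-NS lies highest (26.9 to 58.9), IGF-NS lowest (3.28 to 5.13) and control between them (9.49 to 10.7).

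Other rows of the family were nearly silent, apart from a pair of related genes. Lgals5, a galectin of rat reticulocytes, Lgals7, a galectin of stratified epithelium, and Grifin, a galectin-related protein of the lens, were listed at 0 in all 9 libraries. Lgals2 was listed above 0 only in PDGF-NS library 3, at 0.557 FPKM, as was Lgals4, a galectin of the gut, at 0.111 FPKM. Lgals12, known from adipocytes, did not exceed 0.0754 FPKM. A listed 0 in this table can be a failed estimate: 31 genes with a median over 5 FPKM had a library at 0.

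Lgalsl (ENSRNOG00000005464), a galectin-like protein, had 39.3, 58.0 and 49.0 FPKM in PDGF-NS, 39.0, 42.1 and 37.0 FPKM in IGF-NS, and 63.4, 77.6 and 72.3 FPKM in control. It was lower in every treated library than in every control. It fell by 0.83 on the log2 scale in IGF-NS (SE 0.15, limma adjusted p = 0.00401) and by 0.55 in PDGF-NS (SE 0.15, limma adjusted p = 0.0215). The PDGF-NS call was lost without control library 2 or 3 and without PDGF-NS library 1 or 3, with adjusted p up to 0.0737. Lgals3bp (ENSRNOG00000003217), a secreted glycoprotein that binds galectin-3, had 121, 132 and 117 FPKM in PDGF-NS, 127, 115 and 151 FPKM in IGF-NS, and 122, 106 and 93.8 FPKM in control. Its sets overlapped, and no comparison passed (log2 0.21 with limma adjusted p = 0.292 in PDGF-NS and 0.29 with limma adjusted p = 0.17 in IGF-NS, each against control).

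Start-site windows from RefSeq (GRCr8, 250 bases before to 50 after the start) matched Lgals8 and Lgals9 of the 4 galectins. They are shown for Lgals8, the galectin that rose in both treated sets, and for Lgals9 beside Lgals5. The windows of Lgals9 and Lgals5 match at 223 of 231 paired bases, with 2 gaps between the paired stretches. Lgals8 lies at chr17:62719603-62719902 on the plus strand, Lgals9 at chr10:64428021-64428320 and Lgals5 at chr10:64355088-64355387, both on the minus strand. Each is written 5′ to 3′ along its gene's strand. Capitals mark matches, on either strand, to the AP-1 site TGANTCA, the GC box GGGCGG, the CCAAT box CCAAT and the interferon-response type motif GAAANNGAA.
Lgals8: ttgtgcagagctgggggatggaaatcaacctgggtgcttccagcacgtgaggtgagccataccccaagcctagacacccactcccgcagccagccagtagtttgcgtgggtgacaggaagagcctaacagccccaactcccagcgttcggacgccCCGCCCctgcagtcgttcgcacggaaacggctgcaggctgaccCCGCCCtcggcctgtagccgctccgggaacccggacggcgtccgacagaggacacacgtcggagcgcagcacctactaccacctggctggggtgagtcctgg
Lgals9: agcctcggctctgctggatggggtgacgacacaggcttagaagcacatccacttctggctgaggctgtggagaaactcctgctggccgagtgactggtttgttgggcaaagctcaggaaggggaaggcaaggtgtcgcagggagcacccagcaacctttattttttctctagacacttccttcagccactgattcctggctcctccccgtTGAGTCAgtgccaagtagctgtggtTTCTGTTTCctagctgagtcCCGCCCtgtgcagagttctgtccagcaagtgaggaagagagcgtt
Lgals5: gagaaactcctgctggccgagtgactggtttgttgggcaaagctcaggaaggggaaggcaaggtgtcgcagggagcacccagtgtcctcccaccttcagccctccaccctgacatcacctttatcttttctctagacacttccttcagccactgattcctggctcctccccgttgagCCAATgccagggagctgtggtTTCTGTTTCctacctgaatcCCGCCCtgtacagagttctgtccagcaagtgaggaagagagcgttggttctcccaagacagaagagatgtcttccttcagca

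The Lgals8 window held 2 GC boxes, at −95 and −52 from the start, and no match to the other motifs in capitals. The Lgals9 window held TGAGTCA at −40, a GAAANNGAA match at −15 and a GC box at 6. Lgals5 held a GAAANNGAA match with the same letters, a GC box and CCAAT, and no AP-1 match. The E box CANNTG, which is not capitalised, matched 2 times in Lgals8 and 1 time each in Lgals9 and Lgals5, and TATAAA matched in none of them. Of 33469 RefSeq windows of the same length, 7.33% held the AP-1 letters, 33.1% the GC box, 37.5% CCAAT, 14.2% TATAAA, 9.71% GAAANNGAA and 72.1% the E box, each counted on its own and allowed to overlap others. These are matches of letters in a window and not binding sites.

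Aligned with each other, the Lgals9 and Lgals5 windows shared 223 of 231 paired bases (96.5%), with 2 gaps of which the longer was 30 bases. RefSeq lists 1 gene between them, Nos2-ps1, and 4 galectin pseudogenes (Lgals9-ps1, Lgals9-ps2, Lgals1-ps2 and Lgals8-ps1), of which 0 had a row in the table by symbol. Most of the aligned bases lie before the starts, and transcripts were not compared. Whether reads of similar copies were split, or assigned to a single copy, in the authors' quantification was not tested, and the levels of Lgals1, Lgals8 and Lgals9 and the 0 of Lgals5 are given with that reserve.

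Galectins act through the glycoproteins they bind. Of 26 counter-receptors and ligands, 23 were tested. In PDGF-NS against control 6 rose and 3 fell, 26.1% and 13.0% of those tested, near the 20.7% and 10.2% of all genes called higher and lower. The median log2 fold change was 0.03 against 0.13 for all genes. That median turned to −0.11 under median ratio scaling, and 3 rose without PDGF-NS library 3. In IGF-NS against control 3 rose and 8 fell, 13.0% and 34.8% of those tested, beside 17.4% and 7.48% of all genes, with a median of −0.10 against 0.15 for all genes. Leaving out a library left 1 to 3 higher, with 1 without control library 2 or 3 or IGF-NS library 1, and 6 to 9 lower, and without IGF-NS library 1 the median was 0.02.

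Cd44, the hyaluronan receptor, which carries glycans that galectins bind, had 85.6, 65.8 and 73.5 FPKM in PDGF-NS, 12.0, 16.4 and 13.8 FPKM in IGF-NS, and 22.8, 26.9 and 40.7 FPKM in control. Like Lgals3, it lay above control in every PDGF-NS library and below control in every IGF-NS library. The log2 fold changes were 1.32 (SE 0.21, limma adjusted p = 0.00109) and −1.02 (SE 0.21, limma adjusted p = 0.00698). Cd9, a tetraspanin, averaged 174 ± 23.2 FPKM in PDGF-NS and 56.9 ± 3.4 FPKM in IGF-NS (SD, n = 3 each), a log2 difference of 1.59 (limma adjusted p = 0.000144). The integrin chains Itga5 (1.14) and Itgb3 (1.09) were also higher in PDGF-NS than in IGF-NS. Other counter-receptors fell in both treated sets. Mcam, the adhesion molecule CD146, fell by 2.60 on the log2 scale in PDGF-NS and by 1.76 in IGF-NS, and Itga1, a collagen-binding integrin chain, fell by 1.26 and 1.36. The transferrin receptor gene Tfrc fell by 1.14 in PDGF-NS, and Egfr rose by 1.00 in IGF-NS. The calls named here held in every alternative that tested the gene.

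**Figure D4:**
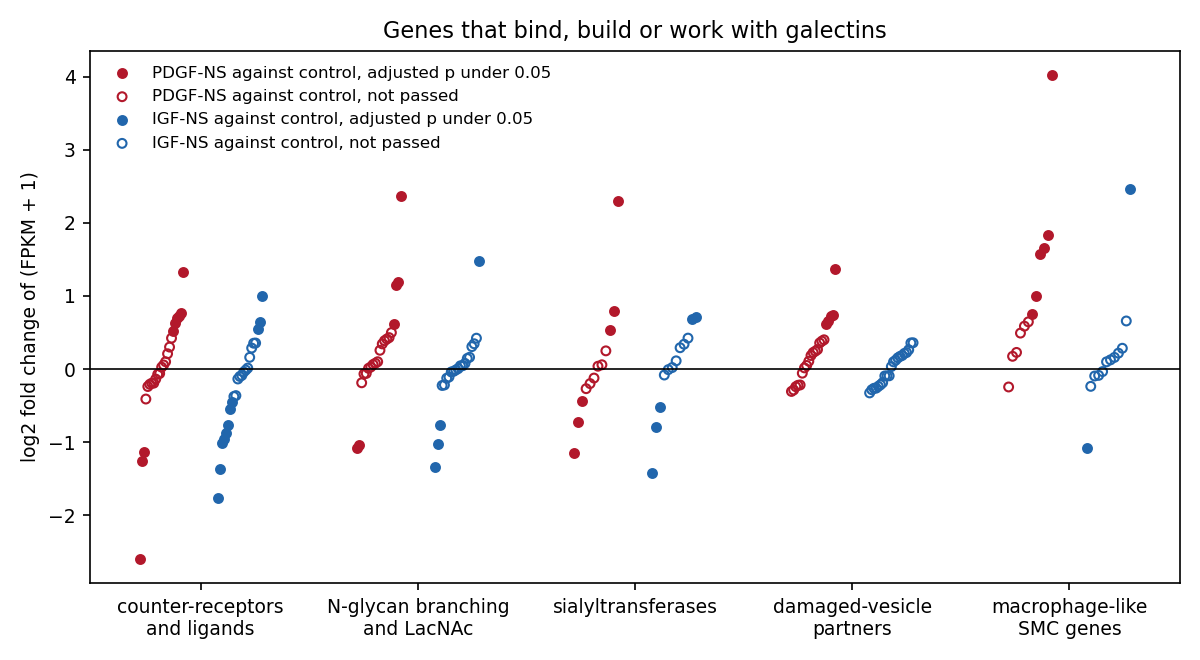
Log2 fold change of (FPKM + 1) against control for the tested members of 5 gene lists, PDGF-NS left of IGF-NS in each list. Each point is 1 gene, filled where the limma adjusted p was under 0.05, and genes are sorted by value. The partners of the damaged-vesicle response hold 5 filled points of 21 in PDGF-NS and 0 of 21 in IGF-NS. Of all genes tested, 31.0% were called in PDGF-NS and 24.9% in IGF-NS. Most points of the other lists are open.

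The glycans that galectins bind are made by branching and galactose-adding enzymes of the Golgi. Of 26 such genes, 20 were tested. Against control, 4 rose and 2 fell in PDGF-NS, 20.0% and 10.0% of those tested, near the 20.7% and 10.2% of all genes. The median was 0.18 against 0.13 for all genes, 0.02 under quantile normalization, and 0.10 without control library 1 to 0.29 without PDGF-NS library 1. In IGF-NS 1 rose and 3 fell, 5.00% and 15.0% of those tested, beside 17.4% and 7.48% of all genes (median 0.00 against 0.15 for all genes, −0.15 under median ratio scaling), and 2 rose without PDGF-NS library 1. B4galt1, a galactosyltransferase that builds N-acetyllactosamine, averaged 98.8 ± 5.52 FPKM in PDGF-NS, 49.0 ± 5.21 FPKM in IGF-NS and 44.4 ± 5.71 FPKM in control (SD, n = 3 each). It rose by 1.14 on the log2 scale in PDGF-NS against control (limma adjusted p = 0.000181), as did its relative B4galt5 by 1.19 (limma adjusted p = 0.000701). Another relative, B4galt2, went the other way and fell in that comparison (−1.04). Gcnt1, which starts the core 2 branch of O-glycans, rose by 2.37 in PDGF-NS and by 1.48 in IGF-NS against control, at means of 7.62, 3.65 and 0.67 FPKM in PDGF-NS, IGF-NS and control. Mgat1, which starts the complex N-glycan, averaged 50.3 ± 3.99 FPKM in PDGF-NS, 43.0 ± 11.3 FPKM in IGF-NS and 109 ± 20.6 FPKM in control (SD, n = 3 each), and fell in both treated sets (−1.08 and −1.34). B3gnt2, which extends poly-N-acetyllactosamine, fell by 1.02 in IGF-NS.

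Sialic acid on the terminal galactose changes which galectins can bind. Of 14 genes that add, supply or remove it, 12 were tested. In PDGF-NS against control 3 rose and 3 fell, 25.0% each, beside 20.7% and 10.2% of all genes (median −0.04 against 0.13 for all genes), and 2 rose and 2 fell without control library 2, control library 3, PDGF-NS library 1 or PDGF-NS library 3. In IGF-NS against control 2 rose and 3 fell, 16.7% and 25.0% of those tested, beside 17.4% and 7.48% of all genes (median 0.07 against 0.15 for all genes, −0.09 under median ratio scaling), and 1 rose and 2 fell without control library 3 and likewise without library 1 or 2 of IGF-NS. St3gal4, an alpha-2,3-sialyltransferase, averaged 61.2 ± 8.65 FPKM in PDGF-NS, 19.7 ± 1.3 FPKM in IGF-NS and 11.6 ± 0.346 FPKM in control (SD, n = 3 each). It rose by 2.29 in PDGF-NS (limma adjusted p = 3.7e-06) and by 0.71 in IGF-NS (limma adjusted p = 0.00401). St3gal1, which caps O-glycans, fell by 1.15 in PDGF-NS and by 0.79 in IGF-NS. St6gal1, whose alpha-2,6-linked product blocks galectin-1 binding, fell by 0.72 in PDGF-NS (limma adjusted p = 0.00293). It also fell in IGF-NS (−0.51), a call that was lost in 3 of 19 alternative settings. Neu1, the lysosomal sialidase, averaged 74.4 ± 13.4 FPKM in PDGF-NS, 31.4 ± 7.94 FPKM in IGF-NS and 84.9 ± 10.3 FPKM in control (SD, n = 3 each), and fell by 1.43 in IGF-NS (limma adjusted p = 0.000928).

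Galectin-3, galectin-8 and galectin-9 mark damaged endosomes and lysosomes, where autophagy receptors and repair factors join them. Of 26 such partners 25 had a row and 21 were tested. Against control, 5 rose and 0 fell in PDGF-NS, 23.8% and 0% of those tested, and the share higher is near the 20.7% of all genes. The median was 0.23 against 0.13 for all genes, and 4 rose and 2 fell under median ratio scaling. Without IGF-NS library 3, which is in neither group but shares the estimate of the spread, 7 rose. Optn, the autophagy receptor optineurin, averaged 18.5 ± 3.63 FPKM in PDGF-NS, 5.16 ± 0.661 FPKM in IGF-NS and 6.51 ± 0.937 FPKM in control (SD, n = 3 each), and its rise in PDGF-NS against control was 1.37 on the log2 scale (limma adjusted p = 0.000287). Sqstm1, the receptor p62, rose by 0.74, Map1lc3b, the autophagosome protein LC3B, by 0.72, and Nbr1, another receptor, by 0.66. These calls held in 19 of 19 alternative settings. In IGF-NS against control limma called 0 of the 21, beside 17.4% of all genes called higher and 7.48% lower. Of the 21, 0 had an unadjusted p under 0.05 in that comparison. The median there was 0.03 and turned to −0.09 under median ratio scaling, with 1 member lower, and 1 member was lower without control library 1.

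Because Lgals3 is a marker of macrophage-like smooth muscle cells, other genes reported for that state were examined. Of 18, 12 were tested. In PDGF-NS against control 6 rose and 0 fell, 50% and 0% of those tested beside 20.7% and 10.2% of all genes, with a median of 0.70 against 0.13 for all genes. Among the 6 is Cd68, which reached the filter only through PDGF-NS, where it is high, and whose call is no support. Without control library 2, PDGF-NS library 1 or PDGF-NS library 3, 5 rose. In IGF-NS against control 1 rose and 1 fell, 8.33% each beside 17.4% and 7.48% of all genes, and 2 fell without IGF-NS library 1 or 3 or PDGF-NS library 1 or 2. The median there was 0.11 against 0.15 for all genes and turned to −0.02 under median ratio scaling and to −0.07 without IGF-NS library 2. Spp1, the secreted protein osteopontin, had 10807, 8041 and 9577 FPKM in PDGF-NS, 627, 803 and 472 FPKM in IGF-NS, and 366, 906 and 583 FPKM in control. Its PDGF-NS libraries stood far above the rest (log2 4.02, SE 0.31, limma adjusted p = 1.46e-05). Ctsb, the lysosomal protease cathepsin B, averaged 1342 ± 159 FPKM in PDGF-NS, 494 ± 20.2 FPKM in IGF-NS and 425 ± 29.1 FPKM in control (SD, n = 3 each), and rose by 1.65 in PDGF-NS. Gpnmb, a lysosomal glycoprotein, was the member that fell in IGF-NS (−1.08, limma adjusted p = 0.00738), at 225 ± 20.6 FPKM against 476 ± 53.1 FPKM in control (SD, n = 3 each). Vcam1, an adhesion molecule for leukocytes, rose in both sets, by 1.57 in PDGF-NS and by 2.46 in IGF-NS.

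The summed level of macrophage and leukocyte markers was higher in PDGF-NS than in control. In IGF-NS, where Lgals3 fell, it overlapped control. Of 20 markers 19 had a row, and their summed FPKM was 45.2 to 92.2 in PDGF-NS, 24.0 to 34.0 in IGF-NS and 19.1 to 29.9 in control. Cd14 carried most of that sum in every library. Ptprc, Aif1, Cd163, Mrc1, Tyrobp, C1qa, C1qb, C1qc, Spi1 and Fcgr3a were listed at 0 in all 9 libraries, and Csf1r did not exceed 0.143 FPKM. Laptm5, Cd53 and Coro1a were listed at 0 in every IGF-NS and control library and above 0 in PDGF-NS, at up to 0.148, 0.282 and 0.0751 FPKM. In all, 11 markers were at 0 throughout PDGF-NS, 14 throughout IGF-NS and 13 throughout control. Only Cd14, Cd68 and Fcer1g reached the filter. Cd14 had 80.1, 42.1 and 56.7 FPKM in PDGF-NS, 22.5, 29.9 and 26.4 FPKM in IGF-NS, and 17.4, 26.2 and 26.8 FPKM in control (PDGF-NS against control 1.29, limma adjusted p = 0.00283). Cd68 had 9.37, 1.39 and 2.13 FPKM in PDGF-NS, 0.112, 0.784 and 0.124 FPKM in IGF-NS, and 0.246, 0.378 and 0 FPKM in control (PDGF-NS against control 1.83, limma adjusted p = 0.015). It reached the filter only through PDGF-NS, where it is high, and without PDGF-NS library 1 it was under the filter, so its call is no support. PDGF-NS library 1 was the highest PDGF-NS library for Cd68, Cd14, Gpnmb, Spp1, Lgals3 and Lgals9 and the lowest for Lgals1. Without that library the PDGF-NS calls of both Lgals3 and Cd14 against control held. The part of these markers in the Lgals3 result was not tested.

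The genes with the most similar profiles were found by the root mean square difference of log2(FPKM + 1), each gene centred on its own mean, over the 9 libraries, among genes of at least 5 FPKM on average. For Lgals3 these were Cdhr1 (0.328), Nt5e (0.346), Clic5 (0.48) and Ptprn (0.506), and 0 genes came within 0.25. Cdhr1 had 65.9, 56.8 and 72.5 FPKM in PDGF-NS, 1.54, 2.11 and 2.13 FPKM in IGF-NS, and 4.0, 6.49 and 7.84 FPKM in control. Nt5e, which encodes the ectonucleotidase CD73, had 37.6, 52.0 and 57.1 FPKM in PDGF-NS, 1.66, 1.68 and 1.54 FPKM in IGF-NS, and 4.99, 6.61 and 6.72 FPKM in control. Both thus lay above control in every PDGF-NS library and below control in every IGF-NS library, as Lgals3 did. Nearness was measured on these same libraries, so this likeness follows from the choice and is no support. All 4 neighbours reached an average of 5 FPKM only through PDGF-NS, where they are high.

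For Lgals1 the nearest were Clic1 (0.108), Arl6ip5 (0.109), RGD1564688 (0.112) and Rpl17 (0.114), and 255 genes came within 0.25. For Lgals8 they were Snx6 (0.076), Extl2 (0.099), Dhrs7 (0.106) and Rpap2 (0.106), and 377 genes came within 0.25. Snx6, a sorting nexin, had 30.9, 31.5 and 31.7 FPKM in PDGF-NS, 36.9, 42.7 and 26.0 FPKM in IGF-NS, and 13.1, 22.3 and 17.7 FPKM in control, so that it shared with Lgals8 the low value in control library 1 and the low value in library 3 of IGF-NS. The profile of Lgals3 had few like it, whereas those of Lgals1 and Lgals8 were common. A profile of smaller change leaves less room for difference: the root mean square distance of a gene from its own mean was 1.644 for Lgals3, 0.4 for Lgals1 and 0.493 for Lgals8. All these values share their libraries and depth and are descriptions.

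**Figure D5:**
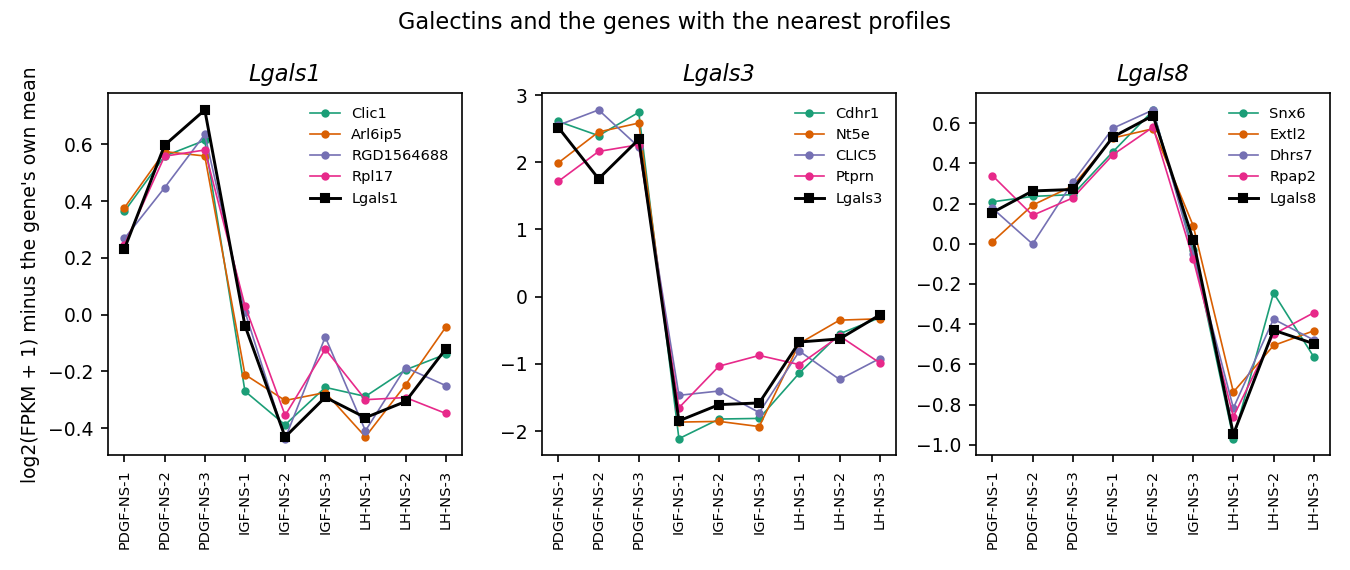
log2(FPKM + 1) minus the gene's own mean (vertical axis) in the PDGF-NS, IGF-NS and control (LH-NS) libraries for Lgals1, Lgals3 and Lgals8 (black squares) and the 4 genes with the nearest profile to each (coloured circles). Lines join the values of a gene and stand for no order of libraries. The neighbours of Lgals3 lie at distances of 0.328 to 0.506 from it, those of Lgals8 at 0.076 to 0.106 and those of Lgals1 at 0.108 to 0.114.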

How the data were processed

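Gene expression was measured by RNA sequencing of 9 libraries of rat S31 cells. Trizol extraction and the Lexogen SENSE mRNA library kit v2 are named per the labels' protocols. The submitters' processing notes name GSNAP and Cufflinks, with versions, build and annotation not given in the sources used here. Values deposited by the authors are FPKM per gene and library. As these values are no counts, count models were not fitted, and the depth behind a value is unknown.

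Libraries were assigned by the column name in each sample record. The table held 26407 rows, 5795 of them without a symbol. The value 999999999, in 10 cells of 4 genes, was read as a failed estimate and those genes were left out, 2 all-zero duplicate rows were removed, and 10199 genes were at 0 everywhere. Acta2, Lgals7b and Clc were not analysed here.

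Genes averaging 1 FPKM or more were fitted with limma 3.58.1 (trend) in R 4.3.3 on log2(FPKM + 1), with all 9 libraries in a single fit and group as the only term. This scale understates the change of low genes. Two-sided p-values were adjusted within each of the comparisons, and the procedure was tested on simulated data. Tables were handled with Python 3.11.15, and windows were aligned with Biopython 1.88.

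The galectins, the gene lists and the tests were chosen with earlier results of these data known. Named from each list were up to 4 called genes per comparison with the largest change; of these the text prints part. All other galectin rows were named, and for each called galectin the 4 genes with the nearest profile. Csf1r, Laptm5, Cd53, Coro1a, Fcer1g, Myh11, B4galt2 and the markers at 0 were chosen after their values were seen. Alternatives were pseudocounts of 0.1 and 0.5, a filter at 5 FPKM or none, other scalings, no trend, fits of only the compared groups, a replicate block and leaving out each library.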

Additional observations from a re-analysis of the deposited data

Results flagged for a closer look

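The effect of the PDGF-NS set against control differed from that of the IGF-NS set in 2 galectins, by the test of the difference itself, which is the comparison of PDGF-NS with IGF-NS in the same limma fit. For Lgals3 the PDGF-NS effect was 2.73 and the IGF-NS effect −1.15 on the log2 scale, a difference of 3.88 (limma adjusted p = 3.45e-06), with all 3 PDGF-NS libraries above and all 3 IGF-NS libraries below the controls. For Lgals1 the effects were 0.78 and 0.01, a difference of 0.77 (limma adjusted p = 0.0149), with all 3 PDGF-NS libraries above the 6 others. The sets differ in growth factor and, by record, in time of harvest, which cannot be told apart. With 3 libraries in a set, no formal test for a single value that stands apart was made.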

How the results depend on the processing

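Of 228 galectin values under 19 alternatives, 209 kept their direction and their side of the threshold, among them all of Lgals3 and Lgals8. Lgals3 ranged from 2.57 to 2.95 in PDGF-NS against control, from −1.31 to −1.03 in IGF-NS against control and from 3.73 to 4.11 between the treated sets. Lgals1 in PDGF-NS against control lost its call with no filter on low values (0.78, limma adjusted p = 0.0634). Between the treated sets it lost it with no filter (0.77, adjusted p = 0.1) and under quantile normalization (0.46, adjusted p = 0.0901), and it ranged from 0.67 to 0.91 with 1 library left out. In IGF-NS against control Lgals1 turned sign under median ratio scaling (−0.15) and common sum scaling (−0.0011), and ranged from −0.10 to 0.10 with 1 library left out. Lgals9 in IGF-NS against control passed with a filter at 5 FPKM (−0.79, adjusted p = 0.0451), median ratio scaling (−0.94, 0.0324), quantile normalization (−0.92, 0.0372) and a fit of only the 2 groups (−0.79, 0.0322). With 1 library left out it ranged from −0.97 to −0.66, and passed without control library 3, PDGF-NS library 1 or PDGF-NS library 2. In PDGF-NS against control it ranged from −0.73 to −0.22. The cause was not tested.

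Genes called in IGF-NS against control numbered 2827, and 1752 (without IGF-NS library 1) to 2957 with 1 library left out. In PDGF-NS against IGF-NS they numbered 1807, and 1009 (without PDGF-NS library 3) to 2152, with 1193 without PDGF-NS library 2. With a replicate block the counts were 3221 in PDGF-NS against control, 2457 in IGF-NS against control and 1530 between the treated sets, and no galectin call changed. No clear pairing of libraries by number was seen. Same-numbered libraries of different sets had deviations correlated at −0.276 to 0.253, and not every library correlated best with its own number. With 3 libraries in a set, these correlations cannot exclude a pairing. Depth is unknown, and Lgals9, at 10.0 to 23.4 FPKM, had the widest interval of the 4 galectins.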
